A study of Mus musculus with 6 samples.

Results

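Alpha RGCs are a class of retinal ganglion cells (RGCs, the neurons that carry signals from the eye to the brain) with large cell bodies. The genes described here are Spp1, Kcng4, Kcnip2, Tpbg and Fes, which are used as markers of alpha RGCs or of subtypes among them. They were found by mouse symbol among the 43346 Ensembl genes listed for every library, and all 5 were listed in all 6 libraries. After a filter on low counts 15747 genes were tested, and these included 4 of the 5 members. Kcng4 did not pass that filter.

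The members encode different kinds of protein. Spp1 encodes osteopontin, a secreted phosphoprotein that binds integrins and CD44 at the cell surface. Kcng4 encodes a silent subunit of voltage-gated potassium channels, which forms channels only together with a Kv2 subunit. Kcnip2 encodes KChIP2, a calcium-binding protein that joins Kv4 channels and alters their surface level and gating. Tpbg encodes trophoblast glycoprotein, a membrane protein with leucine-rich repeats that can inhibit Wnt signaling at the co-receptor LRP6. Fes encodes a cytoplasmic tyrosine kinase, which is also well known from myeloid cells.

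RGCs were purified from mice (C57BL/6, both sexes) by immunopanning on CD90.1 and cultured with forskolin, BDNF and CNTF. The control group received an AAV encoding EGFP. The Sox11 group received an AAV encoding Sox11 and EGFP. The Sox11 K91A group received the same construct with the lysine at position 91 of Sox11, which can carry SUMO, replaced by alanine. Each group had 2 replicates. Wells held 250000 cells, 1.5 μl of AAV was added 4 h after plating, and medium was changed 5.5 and 24 h later. RNA was extracted at 72 h after plating, and each sample held 500 ng. The labels give embryonic day 18 for the RGCs of the RNA-seq and postnatal day 2 for the RGC cultures in general. These ages differ and were not reconciled here. All 3 groups carried an AAV with EGFP, and the promoter that drives the transgenes is not given in the sources used here. The number of animals per library is not stated. The labels speak of duplicates of 3 RNA samples and do not say whether the replicates came from separate cultures. The p-values therefore measure only the spread between these libraries. In control and Sox11 that spread extended to sex-linked genes, whose values are given with the depth.

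Sox11 is a transcription factor that binds DNA through a high-mobility-group box, which prefers short AT-rich motifs. The 250 bases before each RefSeq start of the 5 genes (GRCm38.p6) were searched on both strands for the motif ACAAAG, which reads CTTTGT on the opposite strand. The motif ACAATG, which reads CATTGT on the opposite strand, was searched too. They differ in 1 letter, so no place matches both. The windows of Spp1 and Kcnip2 are printed because these were the members with the largest differences from control in the results. Capitals mark the match, and both are written 5′ to 3′ on the strand of the gene. The Spp1 window is chr5:104434861-104435110 on the plus strand and the Kcnip2 window is chr19:45816064-45816313 on the minus strand.
Spp1: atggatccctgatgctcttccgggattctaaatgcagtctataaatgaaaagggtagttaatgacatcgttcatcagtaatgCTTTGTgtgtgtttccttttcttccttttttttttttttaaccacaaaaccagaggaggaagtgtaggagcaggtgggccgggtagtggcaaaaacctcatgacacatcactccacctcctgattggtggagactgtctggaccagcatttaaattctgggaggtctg
Kcnip2: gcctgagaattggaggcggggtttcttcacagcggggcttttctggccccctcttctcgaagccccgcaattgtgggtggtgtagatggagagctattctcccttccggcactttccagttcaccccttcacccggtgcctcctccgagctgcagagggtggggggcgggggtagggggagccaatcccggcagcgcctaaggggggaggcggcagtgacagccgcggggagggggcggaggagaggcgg
The Spp1 window held 1 match, CTTTGT, which began 168 bases before the start. A window before another RefSeq start of Spp1, at chr5:104435942-104436191, also held 1 CTTTGT. No match stood in the window of Kcnip2, nor in those of Kcng4, Fes or the 2 starts of Tpbg. Of all 32851 windows of this length, 25.2% held at least 1 of these motifs, so a match in a window is common. The GC content was 43.6% in the Spp1 window and 66.8% in the Kcnip2 window, against a median of 52.4% over all windows.

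The libraries held between 27521982 and 37061718 counts. Levels are given as CPM (counts per 1000000 counts, scaled by TMM) where libraries are compared and as TPM (transcripts per 1000000, adjusted for transcript length) where genes are compared. Sox11 lay at 234 and 332 CPM in the control libraries, at 9178 and 14591 CPM in the Sox11 libraries and at 11971 and 7026 CPM in the Sox11 K91A libraries, so it was higher in every library labelled for a Sox11 virus than in both controls. On the second principal component, which held 18.2% of the variance, control replicate 2 and Sox11 replicate 2 were set off from the rest. They had the lowest Xist levels (95.9 and 254 CPM, against 400 to 526 CPM in the others) and the highest levels of the Y-linked Eif2s3y (25.1 and 33.9 CPM, against 7.66 to 12.6 CPM). RGC identity was checked with 12 general RGC genes, all of which passed the filter. Their summed level was 11870 to 12440 TPM in control, 7543 to 10190 TPM in Sox11 and 8989 to 10470 TPM in Sox11 K91A. Every library with a Sox11 virus was thus below both controls. With cultured cells in bulk, fewer alpha RGCs and less RNA per cell cannot be told apart.

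The members differed most in Spp1 and Kcnip2, which had lower means after both Sox11 viruses than after the control virus. Spp1 was 2.25-fold lower with Sox11 and 7.20-fold lower with Sox11 K91A, and Kcnip2 was 5.40-fold lower with Sox11 and 2.79-fold lower with Sox11 K91A. Neither gene passed the test in any comparison, while 20.1% of all genes did with Sox11 and 10.6% with Sox11 K91A, and the replicates of both were far apart. Tpbg and Fes had means within 1.24-fold of control, and Kcng4 was near the limit of detection. Both comparisons with control use the same 2 control libraries and are not independent.

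**Figure D1:**
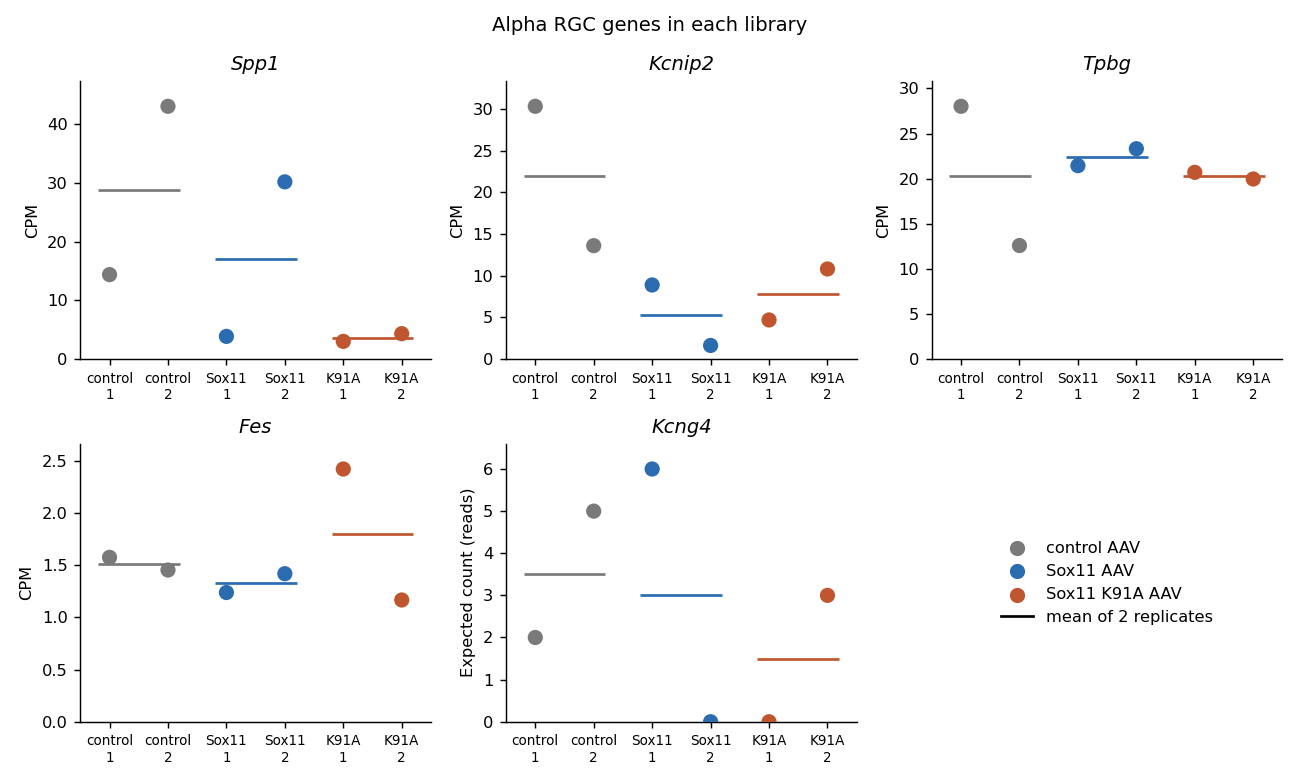
Level of each alpha RGC gene in the 6 libraries, in CPM on a linear axis (Kcng4 in expected counts); points are libraries and lines are means of 2 replicates. Spp1 spans 3.01 to 43.1 CPM with high points in control replicate 2 and Sox11 replicate 2, while the Tpbg points of the Sox11 and Sox11 K91A groups lie between 20.0 and 23.3 CPM.

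Spp1 (ENSMUSG00000029304.10, chr5:104435118-104441050, plus strand) was measured at 14.4 and 43.1 CPM in control replicates 1 and 2, at 3.86 and 30.2 CPM in Sox11 replicates 1 and 2, and at 3.01 and 4.32 CPM in Sox11 K91A replicates 1 and 2. The 2 high libraries belonged to different groups, control replicate 2 and Sox11 replicate 2, and both Sox11 K91A libraries were low. The expected counts behind these levels were 402, 1660, 106, 1001, 97 and 126 in the same order, so counting error was small beside the spread. The mean was 28.7 ± 20.3 CPM in control, 17.0 ± 18.6 CPM with Sox11 and 3.67 ± 0.927 CPM with Sox11 K91A (SD, n = 2 each).

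By mean level the order of Spp1 was control, Sox11, Sox11 K91A, and neighbouring groups in that order overlapped. Sox11 against control gave a log2 fold change of −1.17 (SE 0.88, 95% confidence interval −3.25 to 0.92, adjusted p = 0.372), and the libraries of the groups overlapped. Without Sox11 replicate 1 the log2 fold change was 0.23, on the other side of 0. Sox11 K91A against control gave −2.85 (SE 1.14, interval −5.55 to −0.15, adjusted p = 0.146), and both Sox11 K91A libraries were below both control libraries, as in 30.7% of all genes. Its unadjusted p was 0.0413, under the 0.05 that 30.6% of all genes met in that comparison. Sox11 K91A against Sox11 gave −1.68 (SE 1.23, interval −4.59 to 1.23, adjusted p = 1.0), and these groups overlapped.

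The difference between replicates of Spp1 was among the largest of all genes tested. The higher replicate was 2.99-fold above the lower in control, 7.83-fold in Sox11 and 1.44-fold in Sox11 K91A. On the log2 scale the replicates differed by 1.58 in control, which exceeded 96.4% of tested genes, and by 2.94 in Sox11, which exceeded 99.5%. In Sox11 K91A they differed by 0.51, above 85.4% of tested genes. Genes with their 2 highest levels in control replicate 2 and Sox11 replicate 2 made up 7.86% of those tested.

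Without control replicate 2 and Sox11 replicate 2, an alternative chosen after seeing the data, Spp1 passed the test in both comparisons with control. The log2 fold change was then −1.89 with Sox11 (adjusted p = 0.04) and −2.00 with Sox11 K91A (adjusted p = 0.0145). Control and Sox11 each had 1 library in that fit, and the lone library was assumed to vary like the others. With those 2 libraries kept as a block, also chosen after seeing the data, Spp1 did not pass with Sox11 (−0.89, adjusted p = 0.119) or with Sox11 K91A (−1.64, adjusted p = 0.0567).

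Some markers of connective tissue cells, and most sex-linked genes, were highest in the same pair of libraries as Spp1. Decorin (Dcn) and lumican (Lum), proteoglycans of connective tissue chosen after their values were seen, were among them. Dcn lay at 1.32 and 3.02 CPM in control replicate 2 and Sox11 replicate 2 and at 0.218 to 0.446 CPM in the other 4, and Lum lay at 0.882 and 1.54 CPM against 0.0358 to 0.309 CPM. Of the 7 pericyte and fibroblast markers, 3 were highest in those libraries and 4 were not, and 4 of 5 sex-linked genes were. Col1a1, a fibrillar collagen, was lower in control replicate 2 (2.85 CPM) than in control replicate 1 (6.15 CPM). None of the tested microglia, astrocyte, amacrine or endothelial markers was highest in that pair. Of the tested bipolar markers 1 of 4 (Cabp5) was, and of the photoreceptor markers 1 of 3 (Crx). Among 16 markers of other RGC subtypes 1, Eomes, was. All 7 pericyte and fibroblast markers passed the filter, and none was at 0 in every library. Their summed level was 5.04 to 6.34 TPM in control, 3.82 to 12.09 TPM in Sox11 and 3.77 to 4.71 TPM in Sox11 K91A. Over the 6 libraries the Pearson correlation of log2 CPM of Spp1 was 0.83 with Dcn, 0.48 with Lum, 0.64 with Eif2s3y and −0.88 with Xist, a description of 6 points that share library and depth. The part of these cells or of the sex of the animals in the Spp1 levels was not tested.

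**Figure D2:**
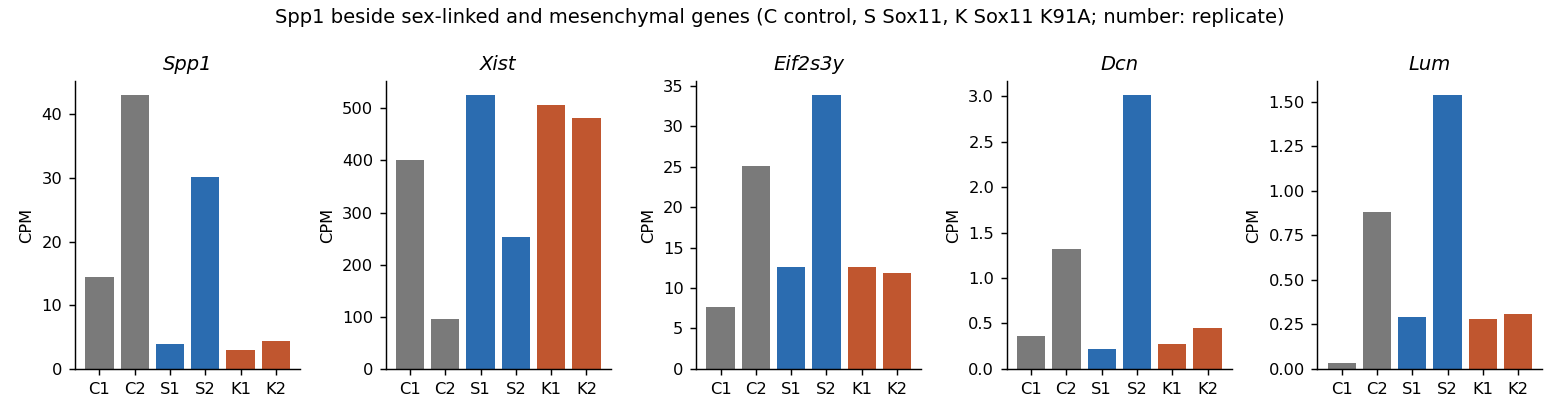
Level of Spp1, Xist, Eif2s3y, Dcn and Lum in CPM in each library, with bars from 0 (C control, S Sox11, K Sox11 K91A, number for the replicate). C2 and S2 hold the 2 highest bars of Spp1, Eif2s3y, Dcn and Lum and the 2 lowest of Xist.

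Microglia and macrophages also express Spp1, so their markers were measured beside it. Of 15 such markers, 3 passed the filter, 12 lay below 1 TPM in every library, and Tyrobp, Fcer1g and Ctss were at 0 in all 6 libraries. The 15 markers together summed to 5.53 to 8.44 TPM in control, 2.92 to 6.11 TPM in Sox11 and 7.28 to 7.86 TPM in Sox11 K91A. Spp1 alone lay at 23.68 and 65.55 TPM in control, at 6.49 and 52.12 TPM in Sox11 and at 4.97 and 7.10 TPM in Sox11 K91A. The marker sum was lowest, 2.92 TPM, in Sox11 replicate 2, where Spp1 was at 52.12 TPM. Aif1 (3.79 and 0 TPM in Sox11 replicates 1 and 2) and C1qb (1.09 and 0.43 TPM) were lower there. C1qa (0.09 and 0.45 TPM), Cd68 (1.14 and 1.95 TPM) and Tmem119 (0 and 0.09 TPM) were higher there. The part of microglia and macrophages in the Spp1 levels was not tested.

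Spp1 had a close neighbour in the annotation. Gm42793, on the same strand, shares 309 of its 1648 exon bases (18.8%) and was not listed in the files, and the counts of Spp1 were whole in every library. The mean length that RSEM gave Spp1 was nearly constant, from 1397.93 to 1413.68 bases.

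Of the genes with a mean of at least 1 CPM, the 3 whose log2 CPM followed Spp1 most closely over the 6 libraries were Pabpc4 (r = 0.987), Dph2 (r = 0.986) and Sqle (r = 0.985). These code for a poly(A)-binding protein, an enzyme of diphthamide synthesis and the squalene epoxidase of cholesterol synthesis. They were picked from 13374 genes on 6 points, so high values are common, and their own range was narrow. Sqle lay at 155, 205, 117, 192, 123 and 131 CPM in the order of the libraries above, with its 2 highest values in control replicate 2 and Sox11 replicate 2.

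The receptors and processing enzymes of osteopontin made up a list of 19 genes, of which 12 passed the filter. With Sox11, 4 fell and none rose (10.2% of all genes fell), and the list's median log2 fold change was −1.02 against 0.01 for all genes. With Sox11 K91A, 2 fell and none rose (4.81% of all genes fell), with a median of −0.56. Those that fell with Sox11 were the integrin subunits Itga5 (−2.96, adjusted p = 0.0391), Itgb5 (−1.29, adjusted p = 0.0252) and Itgb1 (−0.70, adjusted p = 0.0271) and the protease Mmp9 (−2.90, adjusted p = 0.0174), which can cleave osteopontin. Mmp9 (−2.86, adjusted p = 0.026) and Itgb1 (−0.67, adjusted p = 0.0422) also fell with Sox11 K91A.

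Itgb1 encodes the shared beta subunit of many osteopontin receptors. It lay at 275 and 284 CPM in control and between 159 and 192 CPM in the other 4 libraries, with no overlap. Of all genes, 30.6% lay wholly below control with Sox11 and 30.7% with Sox11 K91A. Itga5 lay at 5.01 and 15.8 CPM in control and between 1.16 and 1.34 CPM in the others, so its control replicates were far apart and the 4 others close together. Cd44, the receptor that is no integrin, was measured at 38.0 and 20.3 CPM in control, 7.06 and 1.30 CPM in Sox11, and 2.27 and 13.2 CPM in Sox11 K91A. Its log2 fold changes of −3.23 (adjusted p = 0.0529) and −2.35 (adjusted p = 0.104) did not pass the test. Itgav, the alpha subunit of the classic osteopontin receptor, had values between 22.0 and 27.2 CPM in all libraries (−0.03 with Sox11, adjusted p = 0.903). The related phosphoproteins Dspp and Mepe and the protease Mmp3 were at 0 in every library.

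Kcng4 (ENSMUSG00000045246.7, chr8:119623854-119635680, minus strand) was close to undetected. Its expected counts were 2 and 5 in control, 6 and 0 in Sox11, and 0 and 3 in Sox11 K91A. In TPM these were 0.04 and 0.06, 0.12 and 0, and 0 and 0.06. A count of 0 allows up to 3 counts, which was 0.0778 to 0.109 CPM in these libraries, so most values lay at or near that limit. A difference between groups was not detectable at this depth, and in a fit of all genes with at least 1 count the adjusted p was 0.721 for Sox11, 0.649 for Sox11 K91A and 1.0 between them.

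Genes related to Kcng4 were better detected. Of 11 Kv2 and other silent Kv genes, 9 passed the filter. Kcnf1, another silent subunit, rose with Sox11 (0.93, SE 0.20, adjusted p = 0.0249) and with Sox11 K91A (0.82, SE 0.20, adjusted p = 0.0485), and no other member of the list passed the test in either direction. The call with Sox11 K91A was made in 5 of 20 settings and was lost with edgeR. Of all genes 9.96% rose with Sox11 and 5.81% with Sox11 K91A. Kcnf1 lay at 8.59 and 7.08 CPM in control and between 13.0 and 15.1 CPM in the other libraries.

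Kcnip2 (ENSMUSG00000025221.11, chr19:45791839-45816061, minus strand) had the largest difference of the members with Sox11. It was measured at 30.3 and 13.6 CPM in control, at 8.88 and 1.63 CPM in Sox11, and at 4.69 and 10.8 CPM in Sox11 K91A. All 4 libraries with a Sox11 virus were below both control libraries, a separation that 30.6% of all genes had with Sox11 and 30.7% with Sox11 K91A. The expected counts were 847, 524, 244, 54, 151 and 315, and the means were 22.0 ± 11.8, 5.25 ± 5.13 and 7.74 ± 4.33 CPM (SD, n = 2 each).

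Sox11 against control gave a log2 fold change of −2.43 (SE 0.79, interval −4.31 to −0.56, adjusted p = 0.0695) for Kcnip2, with an unadjusted p of 0.0183, under the 0.05 that 38.0% of all genes met. Sox11 K91A against control gave −1.48 (SE 0.68, interval −3.09 to 0.13, adjusted p = 0.193). Sox11 K91A against Sox11 gave 0.95 (SE 0.89, interval −1.15 to 3.06, adjusted p = 1.0), the groups overlapped, and without Sox11 replicate 2 the value was −0.34. Leaving out 1 library at a time moved the log2 fold change with Sox11 between −3.58 and −1.15, none of which passed the test. Without control replicate 2 and Sox11 replicate 2, Kcnip2 passed with Sox11 K91A (−2.12, adjusted p = 0.0208) and not with Sox11 (−1.77, adjusted p = 0.0689). With those 2 libraries kept as a block it passed with Sox11 (−2.20, adjusted p = 0.0153) and with Sox11 K91A (−2.23, adjusted p = 0.0224).

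The replicates of Kcnip2 were far apart in every group. They differed by 1.15 on the log2 scale in control, 2.38 in Sox11 and 1.19 in Sox11 K91A, above 92.4%, 98.7% and 97.3% of the genes tested. In control and in Sox11 the higher replicate was 1 for Kcnip2 and 2 for Spp1, and in Sox11 K91A it was 2 for both. Their correlation over the 6 libraries was −0.03.

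**Figure D3:**
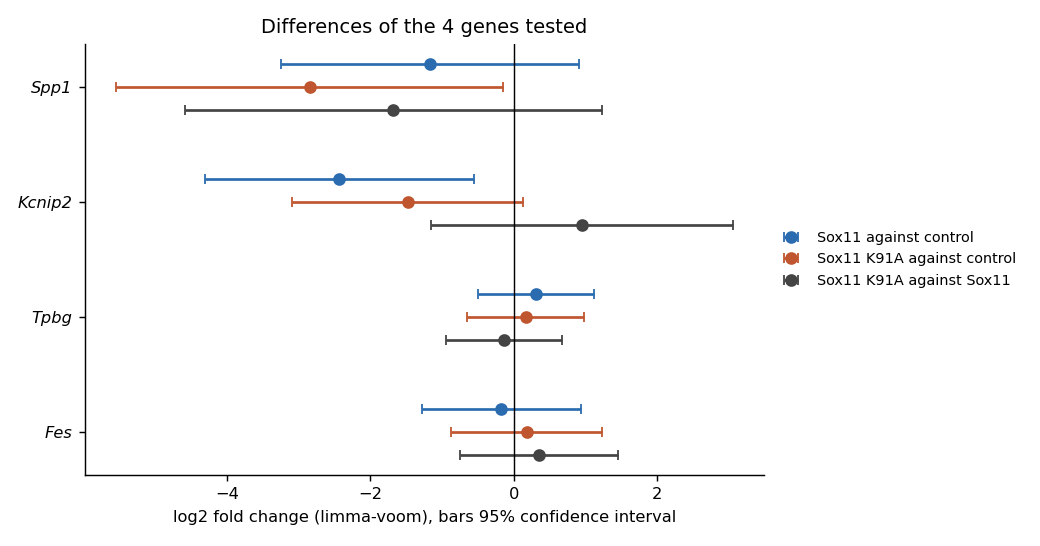
Log2 fold change of the 4 genes tested in the 3 comparisons, with bars for the 95% confidence interval from limma-voom. The intervals of Spp1 with Sox11 K91A (−5.55 to −0.15) and of Kcnip2 with Sox11 (−4.31 to −0.56) lie below 0, and the other 10 cross it.

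The level of Kcnip2 followed the level of Sox11 in the 4 libraries with a Sox11 virus. From low to high, Sox11 lay at 7026, 9178, 11971 and 14591 CPM, and Kcnip2 lay at 10.8, 8.88, 4.69 and 1.63 CPM in the same libraries, exactly the reverse order. Of all genes tested, 13.9% had the exact reverse order and 12.5% the same order as Sox11, so the order by itself is common in these libraries. Nefh had it too, with 32.7, 30.0, 24.5 and 16.2 CPM. Spp1 did not, with 4.32, 3.86, 3.01 and 30.2 CPM, where the library highest in Sox11 was also the highest of these 4 in Spp1. Tpbg and Fes did not have the reverse order either.

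**Figure D4:**
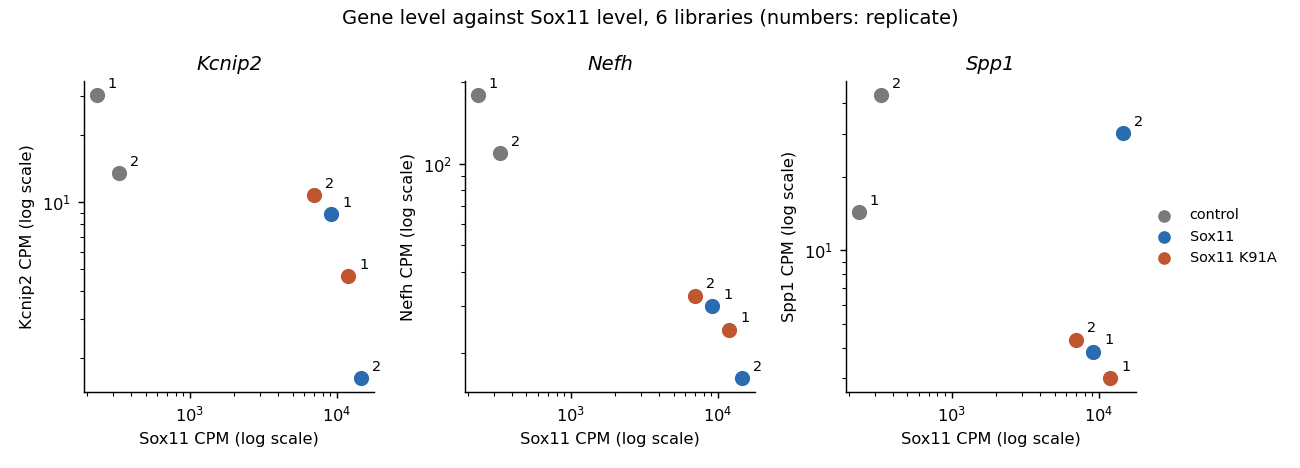
Level of Kcnip2, Nefh and Spp1 against the level of Sox11 in each library, both in CPM on log axes, with colours for the group and numbers for the replicate. From 7026 to 14591 CPM of Sox11, over the 4 libraries with a Sox11 virus, Kcnip2 drops from 10.8 to 1.63 CPM and Nefh from 32.7 to 16.2 CPM, while Spp1 has its highest value, 30.2 CPM, at the right.

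Kcnip2 has several transcripts, and the mix counted by RSEM differed between libraries. Its transcripts numbered 10 in the files and ranged from 375 to 3114 bases. The mean length was 2247.82 and 2269.87 bases in control, 2152.54 and 2353.95 bases in Sox11, and 1984.75 and 1873.47 bases in Sox11 K91A, so both Sox11 K91A libraries were the shortest. In TPM, which divides by that length, Kcnip2 lay at 29.37 and 11.95 in control, 9.17 and 1.54 in Sox11, and 5.21 and 12.74 in Sox11 K91A. On this scale Sox11 K91A replicate 2 overlapped the control group, which it did not in CPM.

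The 3 genes most like Kcnip2 were Dkk3 (r = 0.999), Dgkz (r = 0.999) and Tmtc1 (r = 0.998), again among 13374 genes and over 6 libraries. Dkk3, a secreted member of the Dickkopf family, lay at 498 and 371 CPM in control, 326 and 192 CPM in Sox11, and 266 and 346 CPM in Sox11 K91A. Tmtc1 had a wider range, from 249 CPM in control replicate 1 to 26.5 CPM in Sox11 replicate 2. Both had their highest value in control replicate 1 and their lowest in Sox11 replicate 2, as did Kcnip2.

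All 8 genes of the Kv4 channel complex passed the filter, and 7 of them had a log2 fold change below 0 with each virus. With Sox11, 3 fell and none rose (10.2% of all genes fell), with a median of −0.77 against 0.01 for all genes. With Sox11 K91A, 2 fell and none rose (4.81% of all genes fell), with a median of −0.48 against 0.02, and edgeR called 0 of the 8 there. Kcnip4, a relative of Kcnip2, fell by 2.32 (adjusted p = 0.0206) with Sox11 and by 1.87 (adjusted p = 0.0404) with Sox11 K91A on the log2 scale. Kcnd1, a pore subunit, fell by 1.13 (adjusted p = 0.0216) and by 1.01 (adjusted p = 0.0377). Kcnd2, a pore subunit used by many neurons, fell by 0.73 with Sox11 (adjusted p = 0.0486), a call made in 7 of 20 settings. It gave −0.64 with Sox11 K91A (adjusted p = 0.0872).

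Kcnip4 lay at 14.1 and 16.5 CPM in control, 4.95 and 1.99 CPM in Sox11, and 2.92 and 6.17 CPM in Sox11 K91A. Its control libraries were close together, unlike those of Kcnip2, and none of the other 4 reached them. The same separation was seen in 30.6% of all genes with Sox11 and 30.7% with Sox11 K91A. Dpp6, an auxiliary membrane subunit, was the exception to the lower values, at 146 and 117 CPM in control and 166 to 179 CPM in the others (0.38, adjusted p = 0.118). Of the 8 genes, 5 had the exact reverse order of Sox11 in the 4 libraries with a Sox11 virus, against 13.9% of all genes. Other lists had it too, with 5 of 12 general RGC genes, 3 of 6 genes that act with Tpbg and 2 of 4 other alpha RGC genes. It was held by 3 of the 12 tested osteopontin genes and 1 of 7 genes of the semaphorin list.

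**Figure D5:**
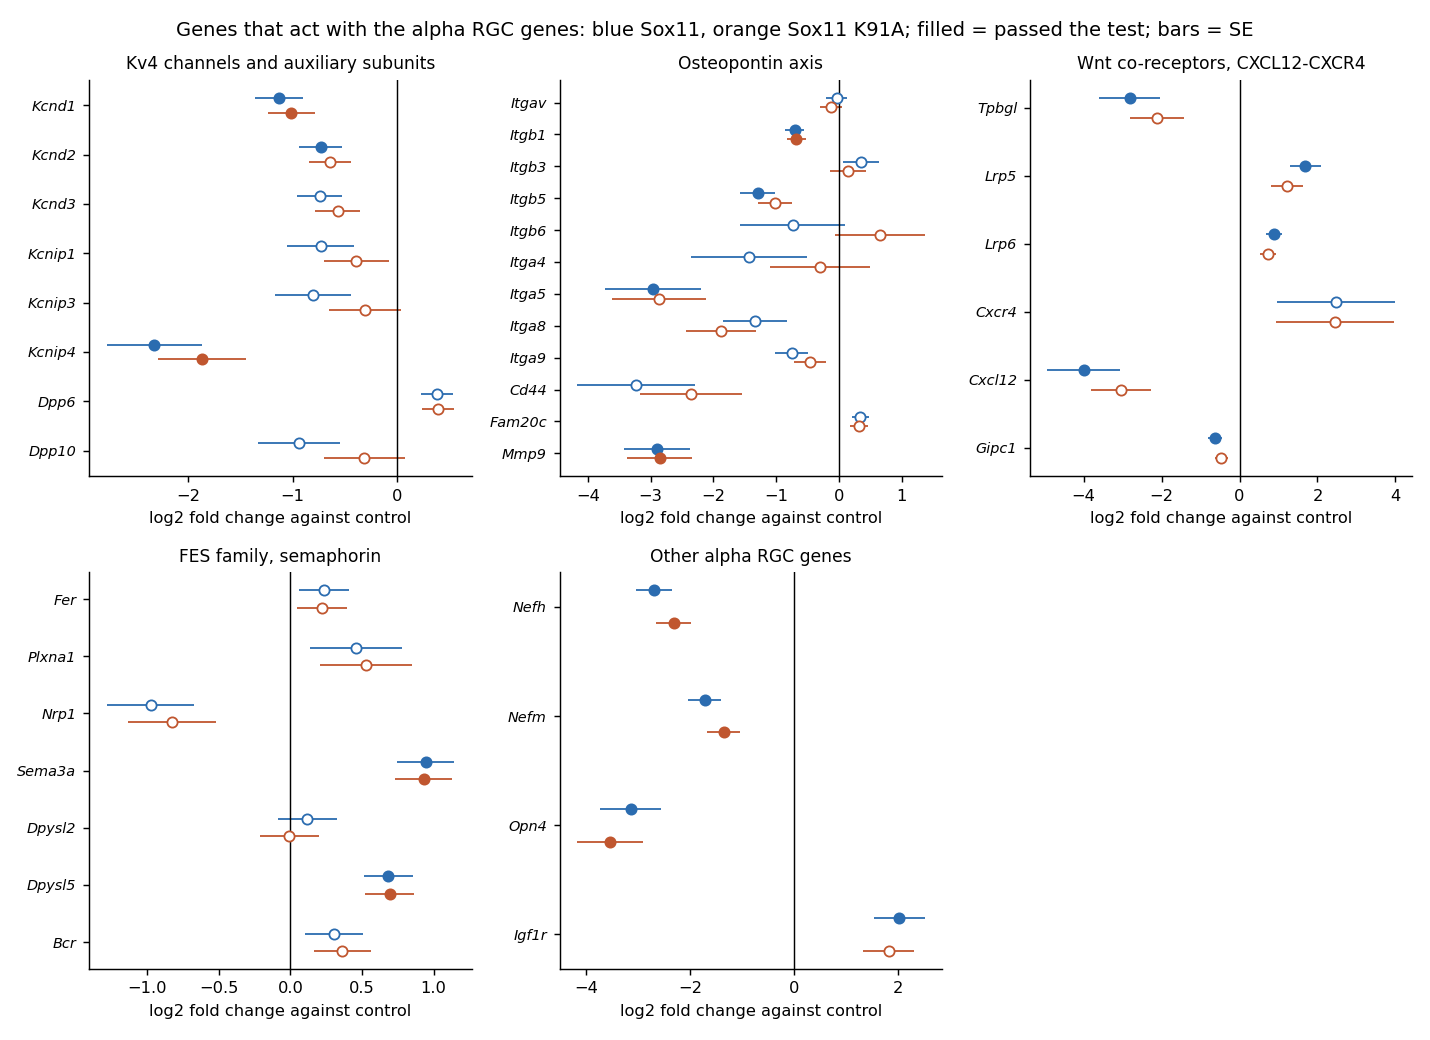
Log2 fold change against control of 5 gene lists related to the members, blue for Sox11 and orange for Sox11 K91A, with bars for the SE and filled points for genes that passed the test. Of the Kv4 genes only Dpp6 lies above 0, and Nefh, Nefm and Opn4 are filled below 0 with both viruses.

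Tpbg (ENSMUSG00000035274.9, chr9:85842380-85847040, plus strand) was measured at 28.0 and 12.6 CPM in control, at 21.4 and 23.3 CPM in Sox11, and at 20.7 and 20.0 CPM in Sox11 K91A. The 2 control libraries were the highest and the lowest of all 6, and the 4 others lay between them. The means were 20.3 ± 10.9, 22.4 ± 1.33 and 20.3 ± 0.523 CPM (SD, n = 2 each). The replicates differed by 1.15 on the log2 scale in control, above 92.3% of genes, and by 0.12 and 0.05 in the other groups, both less than the median gene.

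The log2 fold change of Tpbg was 0.31 with Sox11 (SE 0.34, interval −0.50 to 1.11, adjusted p = 0.546) and 0.17 with Sox11 K91A (SE 0.34, interval −0.65 to 0.98, adjusted p = 0.789). It was −0.14 between the viruses (SE 0.34, interval −0.95 to 0.67, adjusted p = 1.0), where the 2 groups did not overlap. The direction against control rested on 1 library. Without control replicate 2 the values were −0.33 with Sox11 and −0.47 with Sox11 K91A, and without control replicate 1 they were 0.83, which passed the test (adjusted p = 0.0283), and 0.69. DESeq2 gave −0.0093 with Sox11 K91A, also below 0.

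Counts of Tpbg were not all whole. 9330154J02Rik, on the opposite strand, covers 898 of its 3828 exon bases (23.5%), and whether the counting used strand is not stated, so reads of the 2 genes may be mixed. The mean length from RSEM was 2977 and 3527 bases in control and 2647 to 2877 bases in the others. In TPM, Tpbg lay at 19.96 and 6.84 in control, 16.09 and 19.42 in Sox11, and 16.18 and 15.52 in Sox11 K91A, with control replicate 2 again the lowest.

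The genes most like Tpbg were Igdcc4 (r = 0.998), Trim44 (r = 0.997) and Atrn (r = 0.996). Atrn, which encodes attractin, lay at 202 and 122 CPM in control, with 166 to 183 CPM in the others. Each of the 3 had its highest value in control replicate 1 and its lowest in control replicate 2, the pattern of Tpbg.

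Genes that act with Tpbg, its paralog Tpbgl, the Wnt co-receptors Lrp5 and Lrp6, the chemokine Cxcl12 with its receptor Cxcr4, and the adaptor Gipc1, made up a list of 6, all of which passed the filter. With Sox11, 2 rose and 3 fell (9.96% of all genes rose and 10.2% fell), and with Sox11 K91A none passed the test. Lrp5 (1.68, adjusted p = 0.0313) and Lrp6 (0.89, adjusted p = 0.0301) rose, and Cxcl12 (−4.00, adjusted p = 0.0299), Tpbgl (−2.81, adjusted p = 0.0464) and Gipc1 (−0.63, adjusted p = 0.0422) fell. Cxcl12 lay at 25.4 and 19.7 CPM in control, 3.89 and 0.543 CPM in Sox11, and 1.12 and 6.76 CPM in Sox11 K91A. Lrp6 lay at 44.4 and 35.5 CPM in control, 62.9 and 84.8 CPM in Sox11, and 71.9 and 59.1 CPM in Sox11 K91A. The difference between the viruses passed the test for none of them.

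Fes (ENSMUSG00000053158.9, chr7:80377756-80387946, minus strand) was low and similar in 5 of 6 libraries. It was measured at 1.57 and 1.45 CPM in control, at 1.24 and 1.42 CPM in Sox11, and at 2.42 and 1.17 CPM in Sox11 K91A. Sox11 K91A replicate 1 was the only library above 2 CPM. The expected counts were 44, 56, 34, 47, 78 and 34, and the means were 1.51 ± 0.0859, 1.33 ± 0.128 and 1.79 ± 0.887 CPM (SD, n = 2 each).

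The log2 fold change of Fes was −0.17 with Sox11 (SE 0.47, interval −1.28 to 0.93, adjusted p = 0.814), where both Sox11 libraries were just below both control libraries. It was 0.18 with Sox11 K91A (SE 0.45, interval −0.88 to 1.23, adjusted p = 0.83) and 0.35 between the viruses (SE 0.47, interval −0.75 to 1.45, adjusted p = 1.0). Without Sox11 K91A replicate 1 these last values turned to −0.36 and −0.19. The microglia and macrophage markers given beside Spp1 bear on Fes as well, and in TPM Fes lay between 0.89 and 1.86, below the sum of those markers in every library. The genes most like Fes included Gpatch3 (r = 0.980) and Gm10419 (r = 0.979), and Gm10419 also had its highest value, 2.33 CPM, in Sox11 K91A replicate 1.

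FES can act below semaphorin receptors, and all 7 genes of that list passed the filter. With each virus 2 rose and none fell (9.96% of all genes rose with Sox11 and 5.81% with Sox11 K91A). Sema3a, a repulsive guidance cue, rose by 0.94 (adjusted p = 0.0242) with Sox11 and by 0.93 (adjusted p = 0.0357) with Sox11 K91A, and Dpysl5, a collapsin response mediator, rose by 0.68 (adjusted p = 0.0361) and by 0.69 (adjusted p = 0.0488). Sema3a lay at 48.3 and 36.0 CPM in control, 78.7 and 80.8 CPM in Sox11, and 90.7 and 68.8 CPM in Sox11 K91A. Fer, the close relative of Fes, lay between 17.3 and 23.7 CPM in all libraries (0.23 with Sox11, adjusted p = 0.374).

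Across the 4 members tested, none passed the test in any comparison, beside 20.1% of all genes with Sox11, 10.6% with Sox11 K91A and 0.0% between the viruses. The last of these was 0 genes by limma-voom and edgeR, 2 by DESeq2, and 108 genes at an unadjusted p under 0.05. With Sox11, 2 members (Kcnip2 and Fes) lay wholly below control, as did 30.6% of all genes, and with Sox11 K91A 2 members (Spp1 and Kcnip2) did, as did 30.7%. Between the viruses 1 member, Tpbg, did not overlap and was lower with Sox11 K91A, as were 13.4% of all genes. The members' median log2 fold change was −0.67 with Sox11, −0.66 with Sox11 K91A and 0.11 between the viruses, against 0.01, 0.02 and 0.01 for all genes. All of these counts rest on 4 members, too few to set apart from the shares of all genes.

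The members did not follow a shared pattern over the libraries. Their 6 pairwise correlations of log2 CPM over 6 libraries lay between −0.32 (Spp1 and Tpbg) and 0.08 (Tpbg and Fes), a description over points that share depth and library. By level within the control group, Spp1 was the highest at 44.6 ± 29.6 TPM, above Kcnip2 at 20.7 ± 12.3 TPM, but their replicates overlapped. With Sox11 K91A, the means were 6.04 ± 1.51 TPM for Spp1 and 8.98 ± 5.32 TPM for Kcnip2, and Tpbg was above both in each of the 2 libraries.

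Other genes linked to alpha RGCs passed the test where the members did not. Of 4 such genes, 3 fell and 1 rose with Sox11 (10.2% and 9.96% of all genes), and 3 fell with Sox11 K91A (4.81%). Nefh, the heavy neurofilament that stains alpha RGCs, lay at 179 and 109 CPM in control, 30.0 and 16.2 CPM in Sox11, and 24.5 and 32.7 CPM in Sox11 K91A. It fell by 2.69 (SE 0.35, adjusted p = 0.0116) with Sox11 and by 2.31 (SE 0.34, adjusted p = 0.019) with Sox11 K91A. Its control replicates differed less than those of Spp1, and its libraries did not overlap between control and either virus. Such a position wholly below control was held by 30.6% of all genes with Sox11 and 30.7% with Sox11 K91A.

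Nefm, the medium neurofilament, fell by 1.72 (adjusted p = 0.018) with Sox11 and by 1.35 (adjusted p = 0.0437) with Sox11 K91A. Opn4, the photopigment melanopsin of intrinsically photosensitive RGCs, which include some alpha cells, lay at 4.08 and 7.84 CPM in control and between 0.465 and 0.91 CPM in the others. It fell by 3.14 (adjusted p = 0.0184) with Sox11 and by 3.54 (adjusted p = 0.0251) with Sox11 K91A. Igf1r, the receptor of IGF-1, rose with Sox11 (2.02, adjusted p = 0.033) and gave 1.82 with Sox11 K91A (adjusted p = 0.0598). The study drew Spp1 and Opn4 from these same libraries, so their direction here is not independent evidence. The paper also reported a significant fall of both genes with both viruses by qRT-PCR, which was not re-analysed here.

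Markers of other RGC subtypes were measured for comparison. Of 16 such markers, all tested, 1 rose and 3 fell with Sox11 (9.96% of all genes rose and 10.2% fell) and 1 rose and 2 fell with Sox11 K91A (5.81% rose and 4.81% fell). Adcyap1, which encodes the neuropeptide PACAP, fell by 3.62 (adjusted p = 0.0126) and by 3.41 (adjusted p = 0.0199), and Cartpt, a marker of direction-selective RGCs, fell by 2.68 with Sox11 (adjusted p = 0.0429). Trhr, a receptor of thyrotropin-releasing hormone, lay at 1.22 and 1.06 CPM in control and fell (adjusted p = 0.0251 and 0.0272) to between 0.0343 and 0.182 CPM in the others, a few counts per library. Satb1, a chromatin organizer, rose by 0.88 (adjusted p = 0.0197) and by 0.74 (adjusted p = 0.0411).

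Of the 12 general RGC genes, 4 fell with Sox11 (10.2% of all genes fell) and 2 with Sox11 K91A (4.81%), and none rose. Thy1, the antigen CD90 used for the immunopanning, lay at 725 and 689 CPM in control, 259 and 46.3 CPM in Sox11, and 154 and 312 CPM in Sox11 K91A, and it fell by 2.69 with Sox11 (adjusted p = 0.0478). Nrn1 fell by 2.18 (adjusted p = 0.0192) and by 2.07 (adjusted p = 0.0303), Slc17a6, the glutamate transporter of RGC vesicles, fell by 0.83 (adjusted p = 0.0193) and by 0.85 (adjusted p = 0.0272), and Nefl fell by 1.16 with Sox11 (adjusted p = 0.0437). Rbpms, an RNA-binding protein that marks RGCs, lay at 194 to 242 CPM in all libraries and gave −0.18 (adjusted p = 0.418) and −0.14 (adjusted p = 0.589).

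Markers of the other cells that such cultures can hold were measured beside these lists. Astrocyte and Müller cell markers summed to 73.76 to 84.38 TPM in control, 218.2 to 250.2 TPM in Sox11 and 205.1 to 242.4 TPM in Sox11 K91A. Glul, which encodes glutamine synthetase, made up most of that sum and rose by 1.49 (adjusted p = 0.0083) and by 1.51 (adjusted p = 0.0094), S100b fell with Sox11 from 0.465 and 0.467 CPM to 0.0728 and 0 CPM (adjusted p = 0.0428), and Gfap was at 0 in every library (5 of 7 markers tested). Amacrine markers, of which all 7 were tested, summed to 347.4 to 698.5 TPM in control, 426.2 to 525.3 TPM in Sox11 and 508.7 to 515.9 TPM in Sox11 K91A. Pax6 made up most of that sum in every library. Slc6a9 fell by 2.13 (adjusted p = 0.018) and by 1.75 (adjusted p = 0.0338), and no other amacrine marker passed the test. The median log2 fold change of the 7 was 0.03 with Sox11, with 3 below 0. With Sox11 K91A it was 1.06, with 2 below 0.

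Bipolar markers (4 of 6 tested, Vsx1 at 0) summed to 21.02 to 30.07 TPM in control, 14.86 to 15.04 TPM in Sox11 and 15.64 to 16.44 TPM in Sox11 K91A. Prkca made up most of that sum in every library and fell by 1.08 (adjusted p = 0.0202) and by 0.84 (adjusted p = 0.0488). No other bipolar marker passed the test. Photoreceptor markers (3 of 6 tested, Rcvrn at 0) summed to at most 2.82 TPM and endothelial markers (2 of 5 tested) to at most 4.44 TPM in any library. Pde6b fell with Sox11, from 1.93 and 1.79 CPM to 0.4 and 0 CPM (adjusted p = 0.0396), and Pecam1 rose by 2.03 with Sox11 K91A (adjusted p = 0.0468). The part of these cells in the levels of the alpha RGC genes was not tested.

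The counts of these lists rested on few libraries, and some calls named above were made in few settings. With Sox11, Gipc1, Thy1, S100b and Pde6b each passed the test in 8 of 20 settings. With Sox11 K91A, Dpysl5 passed in 8 and Pecam1 in 6. Without Sox11 replicate 2 none of the 15747 genes passed the test with Sox11, and without control replicate 2 or Sox11 K91A replicate 1 none passed with Sox11 K91A. Leaving out Sox11 K91A replicate 2 left 161 genes with Sox11 K91A, with none of the Kv4 or osteopontin lists among them. Without both control replicate 2 and Sox11 replicate 2, control and Sox11 each had 1 library. The median log2 fold change of the Kv4 list was then −0.53 with Sox11 and −0.63 with Sox11 K91A. For the osteopontin list it was −0.70 and −0.95.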

How the data were processed

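RNA-seq of 6 libraries of cultured RGCs was analysed. The authors aligned reads to mm10 with STAR and counted them with RSEM, and they deposited expected counts, TPM and a mean length per gene for each library. Versions, annotation and use of strand are not given in the sources used here. The expected counts deposited by the authors were not normalized, and 80.9% to 82.8% of the values above 0 were whole. The TPM deposited by the authors are scaled to 1000000 per library. Numbered entries other than Ensembl genes held 1 count in all.

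Counts were rounded, filtered with filterByExpr and scaled by TMM (edgeR 4.0.16). They were tested with limma-voom (limma 3.58.1, R 4.3.3) in 1 fit of all 6 libraries without a block. The paper also used limma-voom, but it does not state the filter, the scaling, a block or whether all groups shared a fit. Adjusted p-values are two-sided and Benjamini-Hochberg adjusted over 15747 genes. A gene passed the test at an FDR under 0.05 and a fold change above 1.2. Replicate SD is over 2 libraries, and floors of 3 counts cover counting error only. Names and coordinates came from GENCODE M21 (GRCm38), which named 98.0% of the genes, and promoter windows from RefSeq (GRCm38.p6), where all 5 genes matched. Shared sequence was searched with BLAST+ 2.17.0 at 95% identity over at least 50 bases.

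The members and gene lists were chosen with earlier results of these data known. Named are all members, up to 4 genes per list that passed the test with the largest change, and the 3 genes most correlated with each member. Kcnd2, Itgav, Cd44, Fer, Nefh and Opn4 were named whatever their result, and Dpp6, Gipc1, Rbpms, Dcn and Lum were added after their values were seen. Col1a1, Eomes, Cabp5, Crx, Aif1, C1qa, C1qb, Cd68 and Tmem119 were also named for their levels in single libraries. Some genes that this rule names are not reported here. Alternatives were edgeR and DESeq2 (1.42.0), other scaling, filters and fits, log2(TPM + 1) and log2(TPM + 0.1), a replicate block and leaving out each library.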

Additional observations from a re-analysis of the deposited data

How the results depend on the processing

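The results were recomputed under 16 other settings and 3 chosen after seeing the data. For genes passing the test with Sox11 (3171), a fit of the 2 groups gave 1637, sample quality weights 979, log2(TPM + 0.1) 2107, and leaving out control replicate 2 and Sox11 replicate 2 together 1630. Leaving out 1 library gave 0 (without Sox11 replicate 2) to 3742. With Sox11 K91A (1672), DESeq2 gave 3144, log2(TPM + 1) 936, log2(TPM + 0.1) 896, a block for those 2 libraries 2894 and leaving out both 3871. Leaving out 1 library gave 0 to 2529 (without control replicate 1). Between the viruses limma-voom gave 0 and DESeq2 2.

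Same-numbered replicates did not deviate together in every pair of groups (r = 0.26, −0.04 and −0.28 over 15747 genes). With 2 replicates per group these values cannot settle whether the numbers pair the libraries, and the main fit had no block. With the replicate block, 2679, 1402 and 0 genes passed the test, and Spp1 with Sox11 K91A gave −2.96 (adjusted p = 0.0242). When replicates 1 and 2 of Sox11 K91A were swapped in that block, 2753 genes passed with Sox11 K91A, and the log2 fold changes that newly passed were −3.14 for Spp1 with Sox11 K91A, −2.22 for Kcnip2 with Sox11 and −1.52 for Kcnip2 with Sox11 K91A.

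With those 2 libraries as a block of their own, Spp1 did not pass with Sox11 (−0.89) or Sox11 K91A (−1.64), Kcnip2 passed the test with Sox11 (−2.20) and with Sox11 K91A (−2.23), and the signs turned for Kcnip2 between the viruses (−0.025) and for Tpbg with Sox11 K91A (−0.14). Without both libraries, Spp1 passed with Sox11 (−1.89) and with Sox11 K91A (−2.00), Kcnip2 passed with Sox11 K91A (−2.12), and the signs turned for Kcnip2 between the viruses (−0.35) and for Tpbg with Sox11 (−0.39) and Sox11 K91A (−0.46). DESeq2 turned Tpbg with Sox11 K91A to −0.0093. The cause of these differences was not tested.

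Leaving out 1 library at a time gave log2 fold changes for Spp1 from −2.74 to 0.23 with Sox11, from −3.58 to −2.01 with Sox11 K91A and from −3.07 to −0.11 between the viruses. For Kcnip2 they ran from −3.58 to −1.15, from −2.12 to −0.86 and from −0.34 to 2.10, for Tpbg from −0.33 to 0.83, from −0.47 to 0.69 and from −0.20 to −0.076, and for Fes from −0.28 to −0.086, from −0.36 to 0.68 and from −0.19 to 0.85. Kcng4 was not tested in the main fit and has no such values. Depth limits Kcng4, with at most 6 counts, and Fes, with at most 78.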
